A study of Mus musculus with 2 samples.

Results

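The genes described here are 7 antimicrobial and acute phase effectors of myeloid cells: Saa3, Lyz1, Lyz2, Slpi, Camp, Ltf and Srgn. They were taken by symbol, and all 7 were found among the 55536 genes of the deposited gene tables, of which 22028 are protein-coding. In nucleoplasmic RNA of Lipid A-treated mouse macrophages, Lyz2, Saa3 and Srgn had high levels in both libraries. Lyz1, Ltf, Slpi and Camp had between 1 and 22 counts each. Of the 3 effectors with enough counts to compare the libraries, 1 (Srgn) was beyond 2-fold, beside 3.46% of all genes compared.

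Bone marrow-derived macrophages (BMDM), primary phagocytes of the inbred mouse strain C57BL/6J, formed 1 group of 2 libraries, replicates 1 and 2. All cells were given Lipid A, the part of bacterial lipopolysaccharide sensed by Toll-like receptor 4, at 100 ng/ml for 12 h, kept without it for 12 h and then given the same dose for 30 min. The labels name no untreated cells, and none were analysed here, so no value below is a response to Lipid A. RNA of the nucleoplasm, the soluble part of the nucleus, was sequenced after removal of ribosomal RNA, from 1 µg starting RNA in replicate 1 and 500 ng in replicate 2. The labels list both replicates under 1 donor identifier and do not say that they are separate mice or cultures. The spread between them may therefore be technical in part, and no p-value is given.

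Macrophages and neutrophils kill and contain microbes with enzymes, small proteins and metal-binding proteins that they store in granules or secrete. Lysozyme cuts the peptidoglycan of bacterial cell walls. In the mouse it is made from neighbouring paralogs, Lyz2 in myeloid cells and Lyz1 chiefly in Paneth cells of the small intestine. Serum amyloid A proteins are lipid-binding acute phase proteins, and Saa3 is the member best known from macrophages and other cells outside the liver. Serglycin, the product of Srgn, is a proteoglycan whose glycosaminoglycan chains hold basic cargo in granules. Slpi inhibits serine proteases such as neutrophil elastase, Camp encodes the cathelicidin peptide precursor, and Ltf encodes the iron-binding protein lactotransferrin of neutrophil granules.

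The total over all genes was 23845991 counts (replicate 1) and 20675294 counts (replicate 2), so the limit that a count of 0 allows, 3 counts, equals 0.126 and 0.145 CPM (counts scaled to a common library total). The 7 genes together held 55158 counts (0.231% of the library) and 69944 counts (0.338%), of which Lyz2, Saa3 and Srgn made up 99.9% in each library. Messenger RNA of the mitochondrial genome made up 2.81% of the counts of replicate 1 and 6.85% of those of replicate 2. Levels are given in TPM, a transcript's share of the library scaled to a fixed total, which corrects for gene length and allows genes to be compared within a library. Over 9830 nuclear protein-coding genes, TPM had a median log2 ratio of 0.27 (1.21-fold) in favour of replicate 2. Differences between the libraries are therefore given as the log2 of replicate 2 over replicate 1, from counts scaled by TMM, a method that centres the ratios of most genes near 0. Intervals are exact 95% intervals of the counts and cover counting error only.

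**Figure D1:**
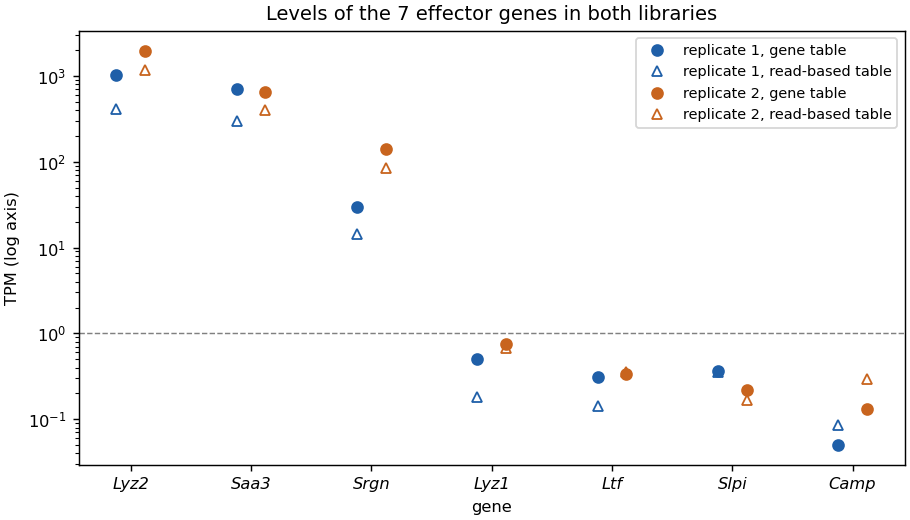
TPM on a log axis for each of the 7 genes in replicate 1 (blue) and replicate 2 (orange), from the alignment-based gene table (filled circles) and the read-based transcript table summed per gene (open triangles); the dashed line marks 1 TPM. Lyz2, Saa3 and Srgn lie above 1 TPM in both libraries and both tables, and the other 4 genes lie below it.

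Lyz2 and Lyz1 lie on the minus strand of chromosome 10 in assembly mm10 (GENCODE M21), Lyz2 (ENSMUSG00000069516.8) at chr10:117277331-117282321 and Lyz1 (ENSMUSG00000069515.6) at chr10:117287797-117292868, 5476 bases apart. Each has 1 annotated transcript with 4 exons. Their transcripts, of 1316 and 1263 bases, were identical at 96.0% of the aligned bases outside gaps. The longest identical run was 118 bases, and 32.8% of all 31-base words and 5.96% of all 75-base words of Lyz2 also occur in Lyz1. Reads from the 2 genes can be told apart only where the sequences differ, so their second exons are shown, on the transcribed strand from 5′ to 3′. Capitals mark the 6 of 165 bases that differ; Lyz2 exon 2 is chr10:117280641-117280805 and Lyz1 exon 2 is chr10:117291029-117291193, both from the GENCODE M21 transcripts.
Lyz2 exon 2: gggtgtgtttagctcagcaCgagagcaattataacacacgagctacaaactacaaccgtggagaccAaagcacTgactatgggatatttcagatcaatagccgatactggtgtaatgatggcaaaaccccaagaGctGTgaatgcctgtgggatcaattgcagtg
Lyz1 exon 2: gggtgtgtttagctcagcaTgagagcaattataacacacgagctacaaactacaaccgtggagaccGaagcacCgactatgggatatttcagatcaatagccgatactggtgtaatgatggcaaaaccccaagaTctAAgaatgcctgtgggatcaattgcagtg

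Lyz2 had the highest level of the 7 genes, 1023 TPM in replicate 1 and 1953 TPM in replicate 2 (1488 ± 658, SD, n = 2), from 43098 and 59533 counts. It ranked 15 and 13 among the 22028 protein-coding genes. The protein-coding genes nearest to it in level over both libraries, by Euclidean distance of log2(TPM + 0.1), were the cathepsin genes Ctsb (distance 0.32; 1046 and 1568 TPM) and Ctsd (distance 0.32; 1173 and 1641 TPM), which encode lysosomal proteases. Its scaled counts were higher in replicate 2 by 0.65 on the log2 scale (0.64 to 0.67), a 1.57-fold difference that put it at place 563 of 9675 genes from the highest ratio.

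Lyz1 was listed at 0.5 and 0.76 TPM (0.63 ± 0.184, SD, n = 2), from 20.01 and 22 counts. Of the counts of both lysozyme genes, Lyz1 held 0.0464% in replicate 1 (exact binomial interval 0.0283 to 0.0716) and 0.0369% in replicate 2 (0.0232 to 0.0559), a mean of 0.0417% ± 0.00668 (SD, n = 2). The intervals overlap. Per length, Lyz2 stood 2045-fold above Lyz1 in replicate 1 and 2570-fold in replicate 2. In the read-based table Lyz1 had 21.3 and 43.5 estimated counts, with shares of 0.0423% and 0.0546%. Whether any of the Lyz1 counts came from Lyz2 RNA was not tested. Markers of epithelial and Paneth cells, the known site of Lyz1, were at or near 0 in the gene table: 6 of 8 had no count in either library, and their summed level was 0.01 and 0.06 TPM.

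The upstream flanks of the lysozyme genes are shown because the genes differed so widely in level while their transcripts are near copies. The windows were taken from RefSeq promoter sequences on GRCm38.p6, which has the primary assembly of mm10, and the Lyz2 window ends just before its annotated GENCODE start. The Lyz1 window was cut to the same length and stops short of the Lyz1 start, so the bases next to that start are not shown. The RefSeq start of Lyz2 lies downstream of its GENCODE start, and the bases next to it are not shown either. Capitals mark bases that differ or face a gap in the alignment of the windows: 151 columns were identical, 48 were mismatches and 4 were gaps, an identity of 75.9% outside gaps. The windows are chr10:117282322-117282522 for Lyz2 and chr10:117292918-117293118 for Lyz1, both on the minus strand.
Lyz2 promoter: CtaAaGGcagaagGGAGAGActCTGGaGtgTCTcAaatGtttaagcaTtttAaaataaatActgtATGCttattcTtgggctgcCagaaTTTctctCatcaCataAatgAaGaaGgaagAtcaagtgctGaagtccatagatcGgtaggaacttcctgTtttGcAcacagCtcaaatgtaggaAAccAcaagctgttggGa
Lyz1 promoter: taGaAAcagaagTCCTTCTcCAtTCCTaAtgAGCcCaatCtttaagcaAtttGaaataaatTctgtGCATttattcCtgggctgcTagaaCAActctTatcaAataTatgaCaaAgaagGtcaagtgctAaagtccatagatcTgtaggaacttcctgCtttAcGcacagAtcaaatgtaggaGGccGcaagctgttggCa

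Within the printed windows, differences were spread along the length. Over the full RefSeq windows of 300 bases, which reach past the start site, identity was 83.6%, and the last 100 bases, which include the bases next to the Lyz1 start, differed at 1 position. Identity over the 300 bases was thus lower than that of the transcripts, but the last 100 bases were nearly identical. Most of those 100 bases lie inside the annotated first exon of Lyz2 (chr10:117282107-117282321), and part inside that of Lyz1 (chr10:117292703-117292868). They therefore overlap the transcripts compared above and are not flank alone. What the differences do to transcription was not tested.

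Saa3 (ENSMUSG00000040026.8, chr7:46711998-46715700, minus strand) was the acute phase gene with the highest level. It stood at 696 and 648 TPM (672 ± 33.5, SD, n = 2), from 11076 and 7324 counts, with ranks of 24 and 35 among protein-coding genes. Its range did not overlap that of Lyz2 in TPM of the gene table, nor in the read-based table, where Saa3 had 302 and 399 TPM and Lyz2 had 407 and 1165. The nearest genes in level were Sirpa, an inhibitory receptor gene of myeloid cells (distance 0.21; 691 and 747 TPM), and Ifit2, an interferon-induced gene (distance 0.24; 601 and 706 TPM).

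Scaled Saa3 counts were lower in replicate 2, by a log2 ratio of -0.41 (-0.45 to -0.37), or 0.753-fold, whereas the ratio of TPM was -0.10. Scaled read-based counts gave -0.38, but the read-based TPM values given above were higher in replicate 2. The median read-based TPM over all protein-coding genes was higher there too, at 0.413 in replicate 1 and 0.776 in replicate 2. In scaled counts Lyz2 and Saa3 thus differed between the libraries in opposite directions, both by less than 2-fold.

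The other serum amyloid A genes were almost without counts in the gene table. Saa1 had 2 and 0 counts, Saa2 had 1 and 3, and Saa4, the next gene on the chromosome, had 0 in both. Saa1, Saa2 and Saa4 together held 3 of 11079 Saa counts in replicate 1 (0.0271%, interval 0.00558 to 0.0791) and 3 of 7327 in replicate 2 (0.0409%, 0.00844 to 0.120). In the read-based table their share was 0.366% and 1.55%, mostly from Saa4. The Saa3 transcript is less like its paralogs than the lysozymes are like each other: identity was 69.9% with Saa1, 70.4% with Saa2 and 69.1% with Saa4 outside gaps. Of the 31-base words of Saa3, 5.33% occur in Saa1, 2.10% in Saa2 and 0% in Saa4, and no 75-base word was shared. Saal1, the neighbour on the other side, had 1.07 and 1.44 TPM.

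The flank of Saa3 is shown because the gene is a known target of C/EBP factors, basic leucine zipper regulators of acute phase genes. The window, chr7:46715701-46715926 on the minus strand, comes from RefSeq on GRCm38.p6. Capitals mark the 4 matches of the C/EBP-like word TTNNGNAA, searched on both strands, whose outermost bases lie 216, 191, 129 and 99 bases before the RefSeq start.
Saa3 promoter: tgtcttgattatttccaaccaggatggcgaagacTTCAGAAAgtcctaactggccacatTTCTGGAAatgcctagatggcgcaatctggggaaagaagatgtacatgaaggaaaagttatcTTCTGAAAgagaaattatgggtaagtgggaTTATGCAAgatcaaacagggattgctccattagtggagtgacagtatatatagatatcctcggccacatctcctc

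At least 1 such match stood in the 250 upstream bases of 36.8% of 32851 RefSeq promoters, so its presence is common. The same bases of Saa3 held no match of an NF-kB-like word, GGG and CC with any 5 bases between them, found in 45.8% of promoters, and none of GAGGAA, a PU.1-like word found in 23.3%. Lyz1 and Lyz2 each held 1 C/EBP-like match, Ltf held 2, Slpi held 3 and Camp held 0. Of the 2 Srgn promoters the downstream one held 5, some overlapping, and the upstream one held 0. The Saa3 paralogs, almost without counts, held such matches too: 2 in Saa1, 1 in Saa2 and 2 in Saa4. Each of these paralogs also held 1 NF-kB-like match. The share of promoters with as many C/EBP-like matches as Saa3 was not counted. Among genes of C/EBP factors, Cebpb stood at 47.9 and 17.9 TPM, from 2366 and 638 counts, with a log2 ratio of -1.70 (-1.83 to -1.58). Cebpd had 261 and 166 counts with a ratio of -0.46 (-0.75 to -0.18), and Cebpa had 425 and 530 with a ratio of 0.51 (0.32 to 0.69), in the other direction. These matches are letters in a window, and no binding was measured here.

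Saa3 counts were split between transcripts that differ in an intron. Saa3-201 has 555 bases and 4 exons. Saa3-202, of 2200 bases and 2 exons, is also annotated as protein-coding and runs on into the intron at chr7:46712728-46715009. It covers 2051 of the 2282 bases of that intron (89.9%). Saa3-201 held 8303 and 5798 counts, and Saa3-202 held 2773 and 1526. Saa3-202 therefore took 25.0% of the gene's counts in replicate 1 (24.2 to 25.9) and 20.8% in replicate 2 (19.9 to 21.8), intervals that do not overlap.

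Because Saa3-202 is the longer transcript, its share of TPM was smaller, 5.21% and 4.28% (4.75% ± 0.661, SD, n = 2). In the read-based table its share of TPM was nearly the same in the libraries, 5.39% and 5.32%. Saa3-202 had a lower replicate ratio (log2 -0.67, -0.77 to -0.58) than Saa3-201 (-0.33, -0.38 to -0.28). Whether counts given to Saa3-202 came from that transcript or from Saa3 RNA not yet spliced was not tested. The third transcript, Saa3-203, was at 0 in both libraries.

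**Figure D2:**
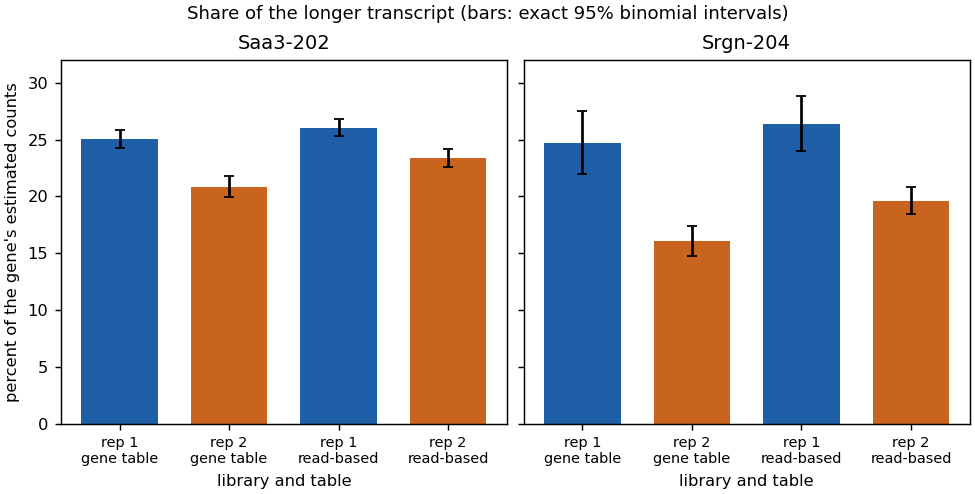
Percent of the gene's estimated counts in the longer transcript, Saa3-202 on the left and Srgn-204 on the right, for replicate 1 (blue) and replicate 2 (orange) in the gene table and the read-based table; the error bars are exact 95% binomial intervals. In both tables each longer transcript took a smaller share of counts in replicate 2. In the gene table it went from 25.0% to 20.8% for Saa3-202 and from 24.7% to 16.1% for Srgn-204.

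Srgn (ENSMUSG00000020077.14, chr10:62493833-62527451, minus strand) had 30.0 TPM in replicate 1 and 140 TPM in replicate 2 (85.1 ± 77.9, SD, n = 2), from 948 and 3049 counts. The SD is close to the mean, and the rank among protein-coding genes was 1180 in replicate 1 and 222 in replicate 2. The scaled counts gave a log2 ratio of 1.87 (1.77 to 1.98), 3.66-fold (3.40 to 3.94). Of the 9675 genes whose mean count was at least 100, 335 (3.46%) lay beyond 2-fold in either direction and 158 (1.63%) were beyond it on the higher side, with 177 lower. On TPM the same genes gave 463 higher and 75 lower. Among the 7 effectors, 3 had enough counts for this comparison and 1, Srgn, was beyond 2-fold, at place 22 of 9675 from the highest ratio.

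**Figure D3:**
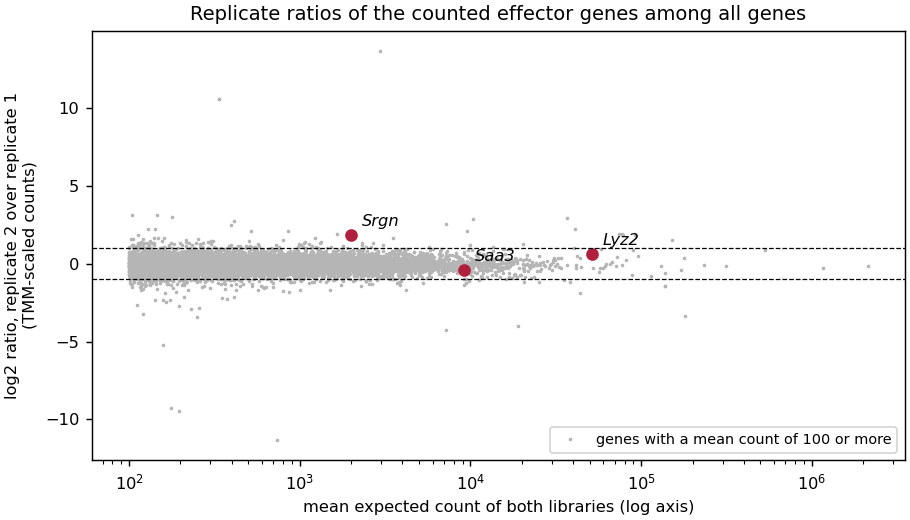
Log2 ratio of TMM-scaled counts, replicate 2 over replicate 1, against the mean expected count (log axis) for the 9675 genes whose mean count is at least 100 (grey) and the 3 effectors among them (red); dashed lines mark 2-fold. Srgn lies at 1.87, outside the lines, and Lyz2 at 0.65 and Saa3 at -0.41 lie inside.

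The central 95% of the 9675 ratios ran from -0.91 to 0.86. Srgn lay outside that range and the Lyz2 and Saa3 ratios inside it. The gene nearest to Srgn in level over both libraries was mt-Co2, a mitochondrial gene (distance 0.49; 40.7 and 120 TPM). Its TPM was higher in replicate 2, which follows from choosing it by level in each library, and replicate 2 is the library with more mitochondrial messenger RNA. Whether cytoplasmic RNA has a part in the Srgn difference was not tested.

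Srgn counts were also split between transcripts. Srgn-201, of 938 bases, starts within the gene, and Srgn-204, of 1727 bases, starts at the upstream end of the gene and has a longer last exon. Unlike Saa3-202, Srgn-204 holds no base of the introns of Srgn-201. Srgn-201 held 714 and 2557 counts with a log2 ratio of 2.03 (1.91 to 2.15), and Srgn-204 held 234 and 490 with 1.25 (1.03 to 1.48). Srgn-204 took 24.7% of counts in replicate 1 (22.0 to 27.6) and 16.1% in replicate 2 (14.8 to 17.4), and a mean of 10.9% ± 3.59 of TPM (SD, n = 2). Both transcripts were higher in replicate 2, and their intervals do not overlap. The neighbours Vps26a (17.0 and 30.1 TPM) and Kif1bp (4.16 and 4.50 TPM) lie outside the gene.

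Slpi, Camp and Ltf were listed at the lowest levels. Slpi (ENSMUSG00000017002.14, chr2:164354070-164389095, minus strand) had 9 and 4 counts, or 0.36 and 0.22 TPM (0.29 ± 0.099, SD, n = 2). All of its gene-table counts were given to Slpi-201, and the overlapping microRNA gene Mir7678 had no count. Camp (ENSMUSG00000038357.10, chr9:109847379-109849617, minus strand) had 1 and 2 counts, or 0.05 and 0.13 TPM (0.09 ± 0.0566), which is below the 3 counts that a count of 0 allows. Ltf (ENSMUSG00000032496.7, chr9:111019271-111042767, plus strand) had 6 and 10 counts, or 0.31 and 0.34 TPM (0.325 ± 0.0212). These values lie below their own deposited bounds, 0.903 to 4.27 TPM in replicate 1 and 1.15 to 5.48 TPM in replicate 2. The TPM level of Ltf is therefore uncertain, also against 1 TPM.

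The counting intervals of the replicate ratios spanned 0 for each of these genes and for Lyz1: -3.13 to 0.86 for Slpi, -3.08 to 7.07 for Camp, -0.68 to 2.67 for Ltf and -0.62 to 1.27 for Lyz1. A difference between the libraries was therefore not detectable at this depth. In the read-based table the ranges of the 4 genes overlapped, at 0.184 to 0.675 TPM for Lyz1, 0.144 to 0.359 for Ltf, 0.169 to 0.357 for Slpi and 0.0852 to 0.292 for Camp.

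The small SD of Ltf in TPM does not show precision. The gene has 12 annotated transcripts, and its few counts fell on different ones in each library. In replicate 1, 2.50 counts were given to Ltf-201, the longest transcript with 2743 bases, and the rest to the shorter Ltf-208, Ltf-212 and Ltf-211. In replicate 2, Ltf-201 held 7.21 and Ltf-207 held 2.79. The effective length of the gene, by which counts are divided, was 504 bases in replicate 1 and 1060 in replicate 2, so 6 and 10 counts gave nearly the same TPM.

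In gene-table TPM the order of the 7 genes was Lyz2, Saa3, Srgn, Lyz1, Ltf, Slpi and Camp. Neighbours in this order did not overlap between libraries except Ltf and Slpi, whose ranges overlap. Each range is of 2 values, which for Lyz1, Ltf, Slpi and Camp rest on 1 to 22 counts. The read-based ranges of these genes overlap, and the deposited TPM bounds of Ltf lie above those of Lyz1 in each library. Their order among themselves is therefore not settled. Of the 7 effectors 3 reached 1 TPM in each library, beside 9220 of 22028 protein-coding genes (41.9%). The share among the effectors is close to that among all protein-coding genes.

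**Figure D4:**
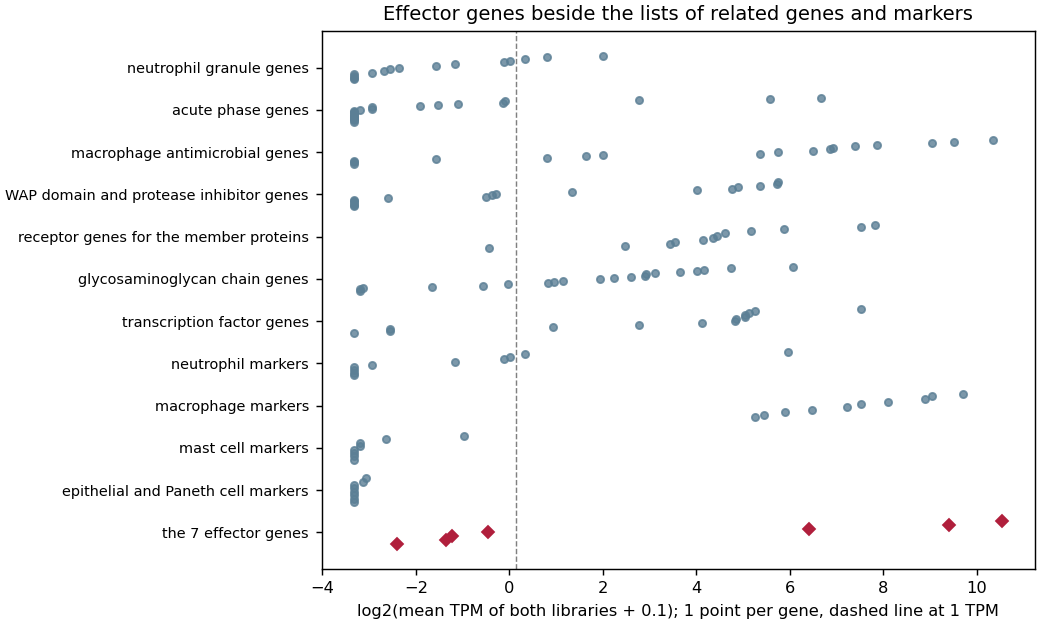
Log2 of mean TPM of both libraries plus 0.1 for each gene of 11 lists (circles) and for the 7 effectors (diamonds); the dashed line marks 1 TPM. The effectors form a high set of 3 and a low set of 4, macrophage markers all lie above the line, and neutrophil granule genes lie mostly below it.

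The labelled cell type was checked against markers. All 10 macrophage markers reached 1 TPM in each library, with Ctss, a cathepsin gene, at 835 ± 211 TPM, Adgre1, which encodes F4/80, at 528 ± 159, and Lgmn, which encodes legumain, at 476 ± 61.4 (SD, n = 2). Their summed level was 2229 and 3116 TPM. Of 10 neutrophil markers 1 reached 1 TPM in each library, Csf3r, the G-CSF receptor gene, with 60.0 and 63.7 TPM of a summed 62.3 and 68.0 TPM. Ly6g, Cxcr2, Elane and Retnlg were at 0 in both libraries of the gene table. In the read-based table Ly6g and Elane were at 0 too, Retnlg had 2 and 1 counts, and Cxcr2 had 189 and 286 counts (0.594 and 1.67 TPM). Mast cells store serglycin as well, and none of their 8 markers reached 1 TPM: Kit had 0.41 ± 0.0141 TPM, and the summed level was 0.42 and 0.56 TPM. In bulk RNA, fewer cells of a type and less RNA per cell cannot be told apart.

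Genes of neutrophil granules, the compartment of Camp and Ltf, were mostly low too. Of 15, Lcn2 and Chil3 reached 1 TPM in each library and 4 had no count. Lcn2, an iron-siderophore binding protein gene, had 5.03 and 2.75 TPM (3.89 ± 1.61), Chil3, a chitinase-like protein gene, had 1.26 and 2.02 (1.64 ± 0.537), and Mmp8, a collagenase gene, had 0.84 and 1.50 (1.17 ± 0.467). The list's median was 0.11 and 0.15 TPM, beside 0.28 and 0.33 TPM over all protein-coding genes. None had a mean count of at least 100.

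Of 21 acute phase genes beside Saa3, 10 had no count in the gene table, 8 had a mean below 1 TPM and 3 reached 1 TPM in each library. Those 3 were the complement gene C3 (102 ± 16.2 TPM), the ceruloplasmin gene Cp (47.8 ± 0.113) and the serpin gene Serpina3g (6.72 ± 1.72). None of the 3 was beyond 2-fold between the libraries, and their median log2 ratio was -0.19.

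The antimicrobial genes of macrophages ranged from 0 to levels near that of Lyz2, with a median of 37.0 and 69.6 TPM. Of 17, 3 (Ptx3, Bpi and Wfdc21) had no count in the gene table and 13 reached 1 TPM in each library, led by Ctsb (1307 ± 368 TPM), Mpeg1, which encodes the pore-forming perforin-2 (728 ± 272), and Acod1, the itaconate-forming enzyme gene (527 ± 50.2). Of 11 with enough counts, 1 was beyond 2-fold, Nos2, the inducible nitric oxide synthase gene, with 579 and 248 counts. Its log2 ratio was -1.03 (-1.26 to -0.82), which was -0.72 on TPM. The median ratio of these 11 was 0.06.

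Of 16 protease inhibitor genes other than Slpi, 7 (43.8%) reached 1 TPM in each library, close to the 41.9% of all protein-coding genes, and 5 had no count in the gene table. The highest were Wfdc17, which like Slpi encodes a WAP domain protein (53.3 ± 23.1 TPM), and the cystatin genes Cstb (52.8 ± 19.7) and Cst3 (40.9 ± 7.98). The other Wfdc genes of the list, Wfdc1, Wfdc2 and Wfdc21, were at 0 in both libraries of the gene table. None of the 7 with enough counts was beyond 2-fold, and their median log2 ratio was 0.38.

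Genes of receptors for the effector proteins reached 1 TPM in each library for 11 of 12, and all 12 had counts. The list was led by Lrp1, a receptor for lactotransferrin (224 ± 47.4 TPM), the co-receptor gene Cd14 (182 ± 68.6) and Tlr2, a receptor for serum amyloid A (58.4 ± 12.6). Cd44, a receptor for serglycin, had 24.4 and 47.7 TPM. None of 11 was beyond 2-fold, with a median log2 ratio of 0.20.

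Enzymes that build the glycosaminoglycan chains of serglycin reached 1 TPM in each library for 13 of 20 genes. The highest were Xylt2, which starts the chains (67.3 ± 4.74 TPM), Ndst2, a heparan sulfotransferase gene (26.7 ± 3.03), and Chpf2, a chondroitin polymerizing factor gene (17.8 ± 1.37). Of 15 with enough counts, 1 was beyond 2-fold: Chst11, a chondroitin 4-sulfotransferase gene, had 165 and 376 counts, which gave a log2 ratio of 1.37 (1.11 to 1.65). The median over the 15 was 0.02.

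Transcription factor genes linked to the effectors reached 1 TPM in each library for 10 of 13. Nfkbiz, an IkB family regulator gene, stood at 183 ± 46.4 TPM, Spi1, which encodes PU.1, at 37.9 ± 2.62, and Nfkb1 at 34.6 ± 1.92. Cebpb was 1 of 10 beyond 2-fold, and the median ratio was -0.24. Cebpe, a regulator of neutrophil secondary granule genes such as Ltf and Camp, had 1 and 3 counts.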

How the data were processed

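Total RNA-seq of the nucleoplasmic fraction was analysed in 2 libraries of 1 group. Per the file headers, all tables are on mm10 with GENCODE M21. The deposited gene and transcript tables made from transcriptome alignments hold expected counts, TPM and FPKM, with TPM bounds and each transcript's percent of its gene. The deposited read-based transcript tables hold estimated counts and TPM, summed here per gene. The sources used here name no aligner, quantifier, strand setting or trimming. Reads shared by paralogs or transcripts were divided by the authors' estimation. Of 14 deposited TPM values of the 7 genes, 6 lay outside their deposited bounds: Saa3, Lyz2 and Ltf, in both libraries. The Saa3 and Lyz2 values lay above their bounds and the Ltf values below.

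Expected counts were rounded to whole numbers for scaling with TMM of edgeR 4.0.16 over genes with at least 10 counts in each library. Rows that name no gene (tRNA, spike-in, phage) were left out. Log2 ratios used a prior count of 0.5, and a gene was read against 2-fold at a mean count of at least 100. Intervals were Poisson (counts) and Clopper-Pearson (shares, ratios), at 95%. Reads are not independent molecules, so intervals and the 3-count limit cover counting error only. Transcripts and promoters were aligned with Biopython 1.88. The ratio calculation was tested on simulated data.

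Text names the 7 genes, the 3 highest genes of each of 11 lists, list genes beyond 2-fold, the 2 nearest genes in level (1 of them is not reported here), neighbours and Saa paralogs. Other list genes, among them Cd44, Cebpa, Cebpd, Cebpe, Orm2 and Orm3, were chosen after their values were seen. The genes and lists were chosen with earlier results of these data known, and the promoter words after the sequences were seen. Alternatives were library size, DESeq2 1.42.0 size factors, TPM, FPKM, other filters, the read-based table, TMM without mitochondrial genes and each library alone.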

Additional observations from a re-analysis of the deposited data

How the results depend on the processing

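Of the 7 effectors, 3 reached 1 TPM in each library in either table, at 5 TPM and without either replicate (range 3 to 3), and 4 at 0.5 TPM, where Lyz1 was added. Srgn stayed the 1 effector beyond 2-fold under every scaling, filter and table tried, with log2 ratios of 1.67 (read-based) to 2.22 (TPM). Read-based counts were compared only at a mean count of at least 100. Below that, Slpi had a read-based log2 ratio of -1.18, from 16 and 7 counts. The number of genes beyond 2-fold was 335 of 9675 (158 higher, 177 lower). It was 538 of 9675 on TPM (5.56%; 463 higher, 75 lower), 705 of 13976 in the read-based table (5.04%; 403 and 302), 1319 of 15051 at a mean count of at least 10 (8.76%; 543 and 776) and 6351 of 22811 without a filter (27.8%; 2471 and 3880). The Lyz1 share, 0.0417%, was 0.0485% in the read-based table and 0.0369% to 0.0464% without a replicate. As percent of counts in place of TPM, a choice made after seeing the data, the mean share was 22.9% for Saa3-202 and 20.4% for Srgn-204. Counts are divided by length for TPM, which lowers the share of a longer transcript. The sign of each effector's log2 ratio of scaled counts was kept under every scaling and in the read-based table. Levels by library were not always ordered alike. The Lyz1 share was lower in replicate 2 in the gene table and higher in the read-based table (0.0423% and 0.0546%). So was Saa3 TPM (302 and 399 read-based). Read-based TPM was higher in replicate 2 in general, with a median over protein-coding genes of 0.413 and 0.776, beside 0.28 and 0.33 in the gene table. Srgn without replicate 1 was at 140 TPM and without replicate 2 at 30.0 TPM. No paired analysis was possible because there is 1 group. Depth limits Lyz1, Ltf, Slpi and Camp to wide intervals.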

Other observations

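Some acute phase genes, and the neutrophil marker Cxcr2 given above, had levels in the read-based table that the gene table did not list. Orm2, an orosomucoid gene, had 7 and 0 counts in the gene table and 7.78 and 9.42 TPM in the read-based table, and its paralog Orm3 had 5 and 4 counts against 4.40 and 6.64 TPM. Saa4 had no count in the gene table and 0.229 and 1.47 TPM in the read-based table, and Crp had no count and 0.301 and 1.31 TPM. The cause was not tested.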
